A study of Homo sapiens with 8 samples.

Results

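The genes described here are the 19 Wnt ligands, the 10 frizzled receptors and 10 secreted antagonists of the pathway, 39 genes of the 20136 protein-coding genes in the annotation. The antagonists comprise 6 proteins that bind Wnt itself (*SFRP1*, *SFRP2*, *SFRP4*, *SFRP5*, *FRZB* and *WIF1*) and 4 Dickkopf proteins (*DKK1* to *DKK4*). The genes were taken as named members of these families, and for each one the share of the gene and its upstream 2 kb that lay inside an enriched region was computed in GRCh37.

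Wnt ligands are secreted, lipid-modified proteins that bind frizzled receptors at the surface of a neighbouring cell. In the canonical branch, binding together with an LRP co-receptor stabilizes β-catenin, which enters the nucleus and activates genes with TCF/LEF factors. Secreted frizzled-related proteins and WIF1 sequester the ligand, and Dickkopf proteins such as DKK1 block the co-receptor. Many of these genes are developmental genes with CpG-rich promoters, a class that Polycomb repressive complex 2 commonly marks with H3K27me3 through its catalytic subunit EZH2. H3K4me3 marks the starts of active genes and, where it lies together with H3K27me3, promoters called bivalent.

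PC9 cells, a human lung adenocarcinoma line, were treated for 5 days with DMSO as the vehicle or with 1 μM GSK126, a small molecule inhibitor of EZH2. ChIP-seq was performed for H3K27me3 and for H3K4me3, with 2 libraries for each treatment and mark, 8 libraries in all. *Drosophila* chromatin and a *Drosophila*-specific antibody had been added to the human ChIP samples of both treatments. The comparison asks how far H3K27me3 at these genes falls when EZH2 is inhibited, and whether H3K4me3 changes there. All libraries come from 1 cell line, and gene expression was not analysed here.

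The data are 14 lists of islands, regions in which the SICER algorithm found more tags than a random background gives. Each H3K27me3 library had 2 lists. For the standard normalization, human tags had been equalized between the treatments of a replicate. For the spike-in normalization, GSK126 tags had been removed in proportion to the *Drosophila* tags, and the full DMSO library was used. The H3K4me3 libraries with DMSO had a single list, used here for both normalizations. The lists held 16401 to 35901 islands over 127 to 300 Mb for H3K27me3 and 17304 to 23875 islands over 34.9 to 85.2 Mb for H3K4me3. Tag numbers behind an island are unknown. Starts of all 5 epithelial marker genes (*EPCAM*, *CDH1*, *KRT8*, *KRT18* and *EGFR*) lay in H3K4me3 islands in both DMSO libraries, and those of the haematopoietic genes *PTPRC* and *CD3E* in neither.

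In the DMSO-treated cells, the 39 gene starts fell into several chromatin classes. A start is the first base of the canonical transcript, and a class required the same state in both DMSO libraries, with spike-in lists for H3K27me3. An island that lay only near this base did not count. Such islands were those of H3K4me3 at *WNT1* and *WNT5B* in replicate 1 and of H3K27me3 at *FZD9* in both replicates, among others. Both marks covered 5 starts, all of ligands (*WNT2B*, *WNT3*, *WNT6*, *WNT10B* and *WNT11*), against 2.97% of all gene starts. H3K27me3 alone covered 10 starts, of the ligands *WNT1*, *WNT3A*, *WNT5B*, *WNT8B* and *WNT9B*, the receptor *FZD8* and the antagonists *SFRP4*, *SFRP5*, *FRZB* and *DKK3*, against 11.1% of all starts. H3K4me3 alone covered 14 starts, of *WNT5A*, *WNT7A*, *WNT7B*, *WNT9A*, *WNT16*, *FZD2* to *FZD7*, *FZD9*, *SFRP1* and *DKK1*, against 55.9% of all starts. Neither mark covered 7 starts (*WNT2*, *WNT8A*, *FZD10*, *SFRP2*, *WIF1*, *DKK2* and *DKK4*), against 23.1% of all starts. The replicates differed at 3 (*WNT4*, *WNT10A* and *FZD1*). An H3K27me3 island held 11 of 19 ligand starts and 1 of 10 receptor starts, against 15.1% of all gene starts. An H3K4me3 island held 10 of 19 ligand starts and 8 of 10 receptor starts, against 59.9% of all gene starts. The difference between roles was not tested.

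The sequences of 6 promoters are shown, 3 under H3K27me3 alone and 1 for each other state. Each is the 250 bases upstream of the start in GRCh37, read in the direction of transcription, and CG dinucleotides are in capitals. *WNT6* (chr2:219724278-219724527, plus strand, 32 CG) carried both marks, *WNT1* (chr12:49371855-49372104, plus strand, 29 CG), *FZD8* (chr10:35931225-35931474, minus strand, 24 CG) and *SFRP5* (chr10:99531757-99532006, minus strand, 21 CG) carried H3K27me3 alone, *DKK1* (chr10:54073791-54074040, plus strand, 18 CG) carried H3K4me3 alone, and *WIF1* (chr12:65515086-65515335, minus strand, 27 CG) carried neither.
WNT6: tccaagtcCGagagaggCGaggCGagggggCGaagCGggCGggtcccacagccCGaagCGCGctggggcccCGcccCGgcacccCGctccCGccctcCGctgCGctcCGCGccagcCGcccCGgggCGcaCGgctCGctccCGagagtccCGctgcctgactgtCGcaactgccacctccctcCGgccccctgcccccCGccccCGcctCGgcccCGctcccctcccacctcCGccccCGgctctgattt
WNT1: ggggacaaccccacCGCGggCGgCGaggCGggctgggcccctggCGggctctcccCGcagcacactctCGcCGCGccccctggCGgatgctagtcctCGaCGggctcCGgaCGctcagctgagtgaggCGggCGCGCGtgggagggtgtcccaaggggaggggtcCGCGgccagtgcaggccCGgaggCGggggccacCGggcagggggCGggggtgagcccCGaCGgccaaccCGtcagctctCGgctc
FZD8: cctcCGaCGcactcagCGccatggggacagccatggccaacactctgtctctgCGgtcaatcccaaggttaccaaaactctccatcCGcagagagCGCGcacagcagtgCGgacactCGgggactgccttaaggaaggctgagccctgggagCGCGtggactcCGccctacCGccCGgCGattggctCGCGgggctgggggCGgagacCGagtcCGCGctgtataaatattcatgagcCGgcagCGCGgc
SFRP5: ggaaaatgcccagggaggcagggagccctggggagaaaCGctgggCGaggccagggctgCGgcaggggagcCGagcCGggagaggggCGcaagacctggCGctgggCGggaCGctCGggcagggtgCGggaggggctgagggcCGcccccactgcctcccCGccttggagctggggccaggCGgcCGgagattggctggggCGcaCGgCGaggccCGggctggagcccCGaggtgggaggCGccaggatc
DKK1: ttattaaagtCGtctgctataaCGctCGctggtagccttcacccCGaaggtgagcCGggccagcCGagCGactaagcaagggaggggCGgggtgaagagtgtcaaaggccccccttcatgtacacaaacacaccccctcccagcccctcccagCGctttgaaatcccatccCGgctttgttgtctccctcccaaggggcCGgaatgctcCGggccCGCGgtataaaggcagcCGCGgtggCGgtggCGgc
WIF1: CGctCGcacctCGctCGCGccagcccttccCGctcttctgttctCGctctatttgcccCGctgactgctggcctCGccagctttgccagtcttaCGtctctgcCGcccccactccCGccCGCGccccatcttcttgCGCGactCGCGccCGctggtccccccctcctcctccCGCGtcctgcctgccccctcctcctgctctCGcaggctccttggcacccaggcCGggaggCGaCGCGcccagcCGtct
The letters CG, which read the same on both strands, were frequent across the members. Over the 39 genes the median was 25 CG in 250 bases, against 18 over all genes, and 87.2% of the members held at least 10, against 69.9% of all genes. Members under H3K27me3 alone had a median of 22.5 CG (range 3 to 38, 10 genes), whereas all 2240 genes of that class had a median of 8. The 3 members of that class with the fewest CG were *WNT8B* with 3, *WNT5B* with 7 and *FRZB* with 11. These are descriptions of the sequence, and *WIF1* shows that a CG-rich promoter could lie under neither mark.

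**Figure D1:**
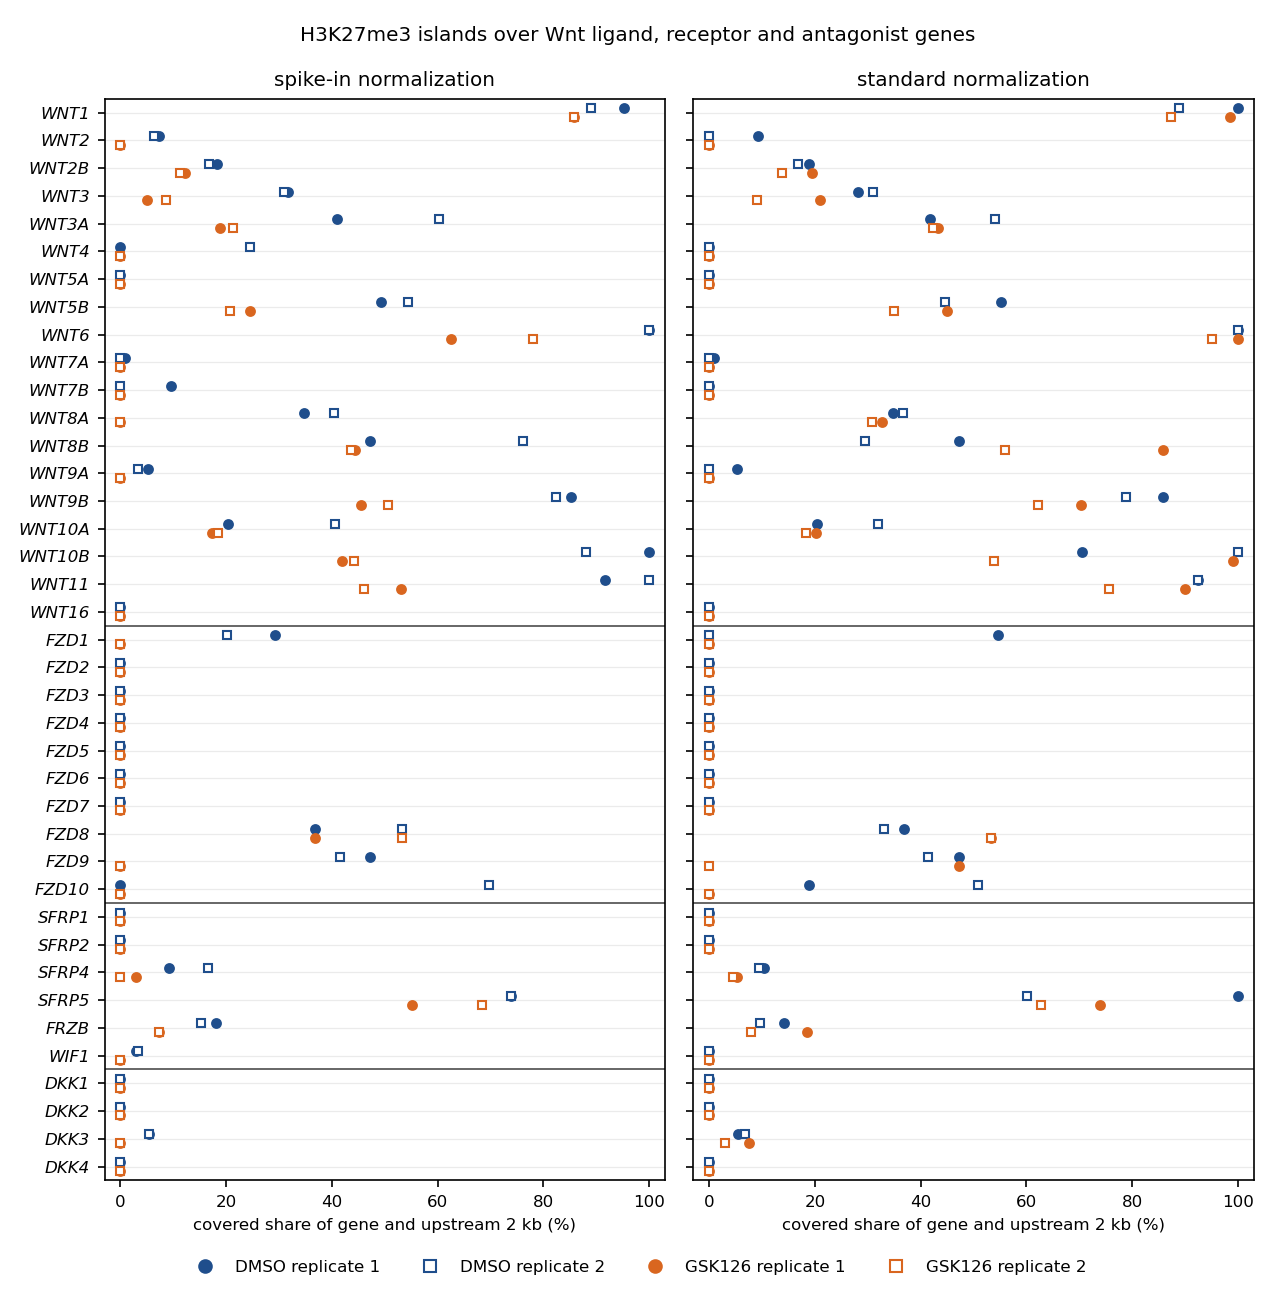
Share of each gene and its upstream 2 kb covered by H3K27me3 islands (x axis, %), for the 39 genes (rows, grouped as ligands, receptors, Wnt-binding antagonists and Dickkopf genes), with spike-in normalization on the left and standard normalization on the right. Points are single libraries, blue for DMSO and orange for GSK126, filled for replicate 1 and open for replicate 2. In the spike-in lists no point of GSK126 lies to the right of the DMSO point of the same replicate, whereas in the standard lists *WNT8B* and *FZD8* lie to the right in both replicates.

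With spike-in normalization, H3K27me3 coverage fell at 10 of the 39 genes by at least 10 percentage points in both replicates, and it rose at 0. Over all 20136 genes, 15.7% fell and 0.0149% rose by this rule. The 10 were 8 ligands (*WNT3*, *WNT3A*, *WNT5B*, *WNT6*, *WNT8A*, *WNT9B*, *WNT10B* and *WNT11*) and 2 receptors (*FZD1* and *FZD9*). Of the 15 members covered over at least 20% in both DMSO lists, 10 fell, against 75% of the 3663 genes covered to that extent. The median change was -5.79 percentage points over the 39 members and -12.4 over the 26 with an island in at least 1 of the 4 lists, against -15.5 over all genes with an island. The other 13 members, *WNT5A*, *WNT16*, *FZD2* to *FZD7*, *SFRP1*, *SFRP2*, *DKK1*, *DKK2* and *DKK4*, had no H3K27me3 island in these lists. With 2 replicates, exact sign flipping gives no p-value under 0.5, so no single gene was tested in that way. In limma fitted across 6456 genes with the replicate as a block, 0 members and 0 genes passed an adjusted p-value of 0.05. At an unadjusted p-value of 0.05, 14 of 26 members passed, all lower with GSK126, against 47.9% of all genes. Without the block, limma called 14 of the 26 members, all lower, and 44.7% of all genes. The block leaves 1 residual degree of freedom.

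The ligand with the largest decrease was *WNT10B*, which acts in bone and fat cell differentiation. Its covered share was 100% and 88.1% in the DMSO libraries and 41.9% and 44.3% in the GSK126 libraries of replicates 1 and 2, so the treatments did not overlap and the change was -51.0 ± 10.1 percentage points (SD, n = 2). *WNT1*, the founding mammalian Wnt gene, lies 6.586 kb away on chromosome 12, yet its share was 95.3% and 88.95% with DMSO and 85.8% and 85.8% with GSK126. The change at *WNT1* was -6.35 ± 4.49 points. Its stretch of 6.299 kb lay mostly inside 1 longer island in DMSO, so the covered share there cannot show a shortening outside the stretch, and the length of that island is given with the other start islands.

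*WNT6*, expressed in developing epithelia, was covered over its whole stretch in both DMSO libraries (100% and 100%) and over 62.5% and 78.1% with GSK126. *WNT10A*, a ligand of tooth and skin development that lies 6.618 kb downstream, had 20.4% and 40.7% with DMSO and 17.4% and 18.5% with GSK126. In DMSO replicate 2 a single island of 33.4 kb (chr2:219718601-219752000) held the starts of both genes, so their values there are not independent. *WNT6* fell in both replicates, while the change at *WNT10A* was carried by replicate 2.

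*WNT9B*, a ligand of kidney tubule formation, was covered over 85.2% and 82.4% with DMSO and 45.6% and 50.6% with GSK126, a change of -35.7 ± 5.56 points. In DMSO replicate 1 of the spike-in lists, a domain of 55.2 kb lay inside and downstream of the gene (chr17:44937401-44992600). With GSK126 it was broken there into 4 islands, the longest of 21.2 kb. In the standard lists, with equal tag numbers, the domain stayed largely covered. It went from 55 kb to islands of 46.6 and 5.6 kb in replicate 1. In replicate 2 of those lists it went from 55.8 kb to islands of 36.8 and 6 kb. The part of tag number in the break was not tested. The adjacent and divergently transcribed *WNT3* is a ligand of early axis formation. Its share in the spike-in lists was 31.7% and 31.0% with DMSO and 4.96% and 8.53% with GSK126. The 2 gene bodies are separated by 0.046 kb and share islands at their border, and both fell in both replicates.

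*WNT11*, which signals mainly without β-catenin, was covered over 91.7% and 100% with DMSO and over 53.0% and 46.1% with GSK126. *WNT5B*, a largely non-canonical ligand as well, went from 49.2% and 54.4% to 24.5% and 20.7%. For these genes the GSK126 values were below every DMSO value, by at least 24.7 points within a replicate.

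*WNT8A*, an early embryonic ligand, lost its islands altogether in the spike-in lists. Its share there was 34.7% and 40.5% with DMSO and 0% and 0% with GSK126. In the standard lists, with equal tag numbers, it kept islands of 3.4 and 3.2 kb with GSK126, against 3.6 and 3.8 kb with DMSO. Their scores were 62.8 and 47.1 with GSK126 and 108 and 106 with DMSO. Its islands in DMSO lay inside the gene (chr5:137423401-137427000 in replicate 1) and not at the start. By contrast *WNT8B*, a ligand of forebrain development, had 47.2% and 76.1% with DMSO and 44.4% and 43.5% with GSK126. The replicates of *WNT8B* disagreed in size, with a mean change of -17.7 ± 21.0 points.

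Among the receptors, *FZD9* went from 47.2% and 41.4% to 0% and 0%. *FZD1* went from 29.2% and 20.2% to 0% and 0%. *FZD8*, encoded by a gene without introns, kept the same share in each replicate, 36.8% and 53.3% with DMSO and 36.8% and 53.3% with GSK126. In the spike-in lists the receptors under H3K27me3 therefore included both complete loss of islands and no change in the covered share. The *FZD8* island ran past the upstream end of the counted stretch in every spike-in list, so the share cannot show a shortening there. That island went from 4.2 and 5.6 kb with DMSO to 2.6 and 3.8 kb with GSK126. In the standard lists *FZD9* kept an island of 3.0 kb with GSK126 in replicate 1 and had none in replicate 2. *FZD10* differed between DMSO replicates, with 0% in replicate 1 and 69.7% in replicate 2, and had 0% in both GSK126 libraries.

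Of the antagonists, *SFRP5* had the highest share, 73.9% and 73.9% with DMSO and 55.2% and 68.4% with GSK126. *FRZB*, a secreted frizzled-related protein of cartilage, had 18.1% and 15.2% with DMSO and 7.25% and 7.35% with GSK126. *SFRP4* had 9.20% and 16.6% with DMSO and 2.96% and 0% with GSK126, and *DKK3*, a divergent Dickkopf family member, had 5.40% and 5.40% with DMSO and 0% and 0% with GSK126. None of these 4 passed the rule of 10 points in both replicates, and all were lower in both. *DKK3* in both replicates and *SFRP4* in replicate 1 had less than 10% with DMSO, so neither gene could pass it. Within 2 kb on either side of the start, *SFRP4* was covered over 80.45% and 70.46% with DMSO, and *DKK3* over 74.31% and 74.98%. Both had 0% there in both GSK126 libraries of the spike-in lists.

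*WNT3A*, a canonical ligand that passed the rule, had 41.1% and 60.2% with DMSO and 18.8% and 21.3% with GSK126. Of the remaining members with islands, *WNT2* went from 7.24% and 6.44% to 0% and 0%, and *WNT2B* from 18.3% and 16.8% to 12.2% and 11.3%. *WNT9A* and *WIF1* each had at most 5.22% with DMSO and 0% with GSK126. *WNT4*, *WNT7A* and *WNT7B* had islands in 1 DMSO library each, the highest with 24.4% at *WNT4*.

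With standard normalization, in which both libraries of a replicate held equal tag numbers, coverage fell at 2 of the 39 genes (*WNT9B* and *FZD10*) and rose at 2 (*WNT8B* and *FZD8*). Over all genes, 5.01% fell and 0.214% rose. *WNT9B* had 85.9% and 78.8% with DMSO and 70.4% and 62.1% with GSK126, and *FZD10* had 18.9% and 50.8% with DMSO and 0% with GSK126. *WNT8B* had 47.2% and 29.5% with DMSO and 85.9% and 55.9% with GSK126, and *FZD8* had 36.8% and 33.1% with DMSO and 53.3% and 53.3% with GSK126. Of the 14 members covered over at least 20% in both DMSO lists, 1 fell, against 25.6% of 3419 genes. The median change over the 39 members was -0.43 percentage points. *WNT10B* illustrates the spread between replicates, with 70.5% and 100% in the DMSO libraries and 99.1% and 53.8% in the GSK126 libraries. In limma with the block, 0 of 23 members and 0 of 6132 genes passed an adjusted p-value of 0.05, and 4 members passed an unadjusted one, against 13.8% of all genes. Without the block, 0 members passed, against 1.27% of all genes. The share at *WNT8B* thus fell in the spike-in lists and rose in the standard lists. The share at *FZD8* was unchanged in the spike-in lists and rose in the standard lists.

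Although coverage fell, most members kept H3K27me3 at the start itself. Of 16 starts inside an island in both DMSO libraries, 14 were inside one in both GSK126 libraries with spike-in normalization, against 47.5% of 3043 starts over all genes. The 2 that lost the island in both replicates were *SFRP4* and *DKK3*. In the standard lists, with equal tag numbers, *SFRP4* kept start islands of 6.4 and 5.4 kb with GSK126. *DKK3* kept one of 4.2 kb there in replicate 1 and not in replicate 2. With standard normalization 14 of 15 starts kept the island, against 77.9% of 2791. When islands needed 2 times the lowest score of their list, 9 of 13 kept it with spike-in normalization, against 45.1% of 2548. When any island within 1 kb of the start counted, 14 of 19 kept one and 5 lost it in both replicates, against 50.3% of 3630 kept. Retention over all genes was higher for higher scores of the DMSO island, with 8.95% in the lowest of 4 equal score classes, 36.1% and 64.0% in the next ones and 80.9% in the highest. The members in these classes numbered 3, 2, 8 and 3, of which 2, 1, 8 and 3 kept the island, and *FZD8* and *WNT8B* were the 2 that kept it in the lowest class. No test of the members' share was made.

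**Figure D2:**
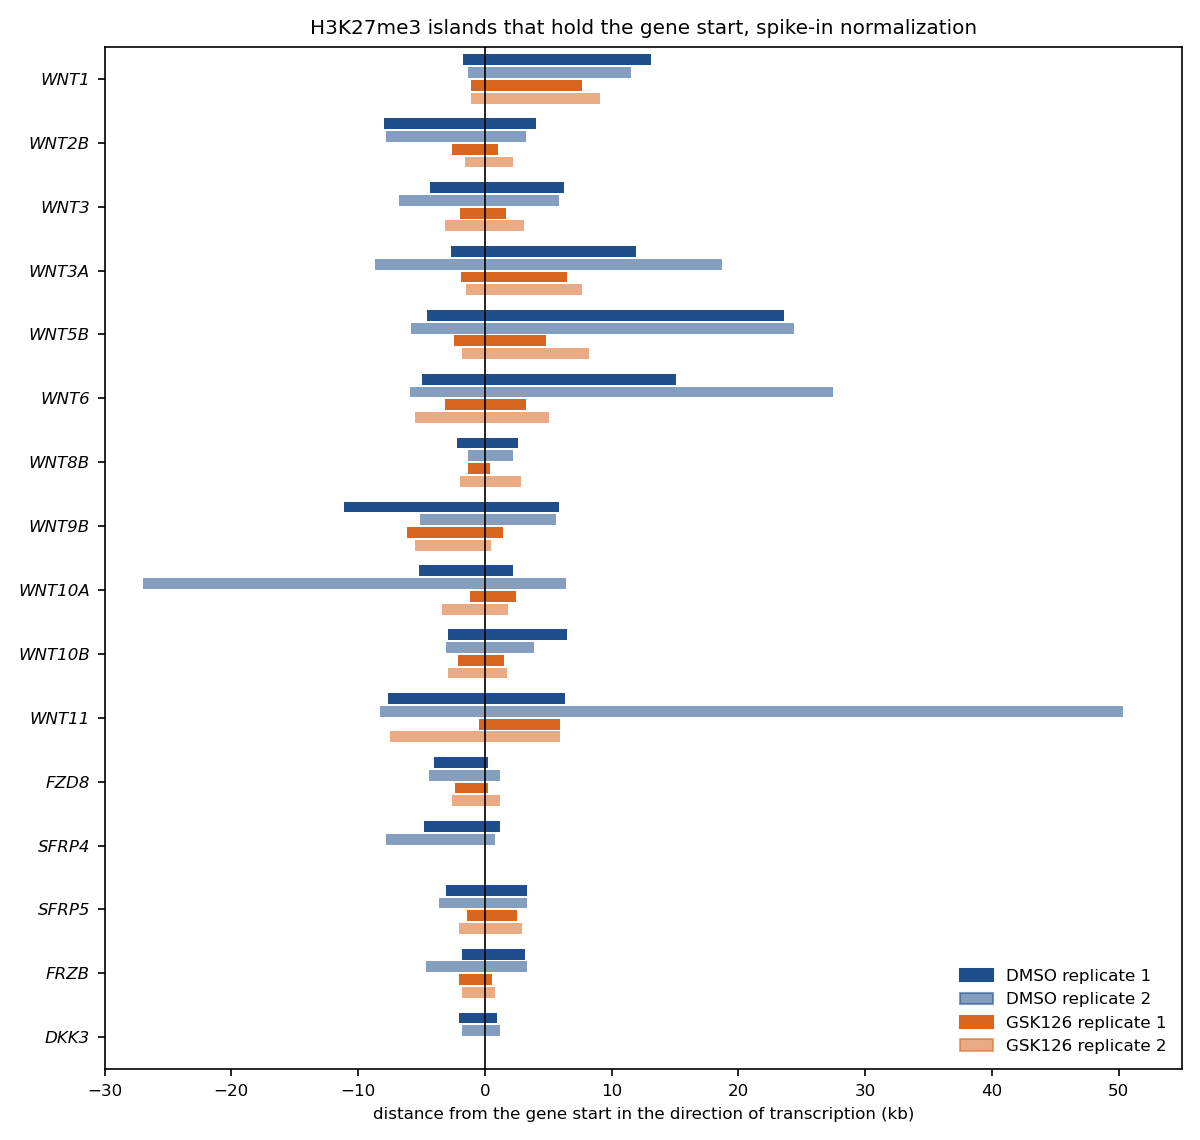
Extent of the H3K27me3 island that holds the gene start, as distance from the start in the direction of transcription (x axis, kb), for the 16 members with such an island in both DMSO libraries (rows), spike-in normalization. Bars are islands, blue for DMSO and orange for GSK126, darker for replicate 1 and paler for replicate 2. The GSK126 bars are shorter than the DMSO bars of the same replicate at every gene shown except *WNT8B* in replicate 2, and are missing at *SFRP4* and *DKK3*.

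The islands that stayed at the start were shorter. With spike-in normalization, the island that held the start was shorter with GSK126 in both replicates for 13 of the 14 members that kept it, against 83.9% of 1446 genes, and longer in both for 0, against 1.11%. The median length over these members was 11.3 and 11.8 kb with DMSO and 3.8 and 5.6 kb with GSK126. At *WNT5B* the island went from 28.2 and 30.2 kb to 7.2 and 10.0 kb, and at *WNT1* from 14.8 and 12.8 kb to 8.8 and 10.2 kb. *WNT11* had the widest spread between DMSO libraries, with 14.0 and 58.6 kb, and had 6.4 and 13.4 kb with GSK126. The exception was *WNT8B*, which went from 4.8 to 1.8 kb in replicate 1 and from 3.6 to 4.8 kb in replicate 2. The GSK126 spike-in lists were called from fewer tags than the DMSO lists, and the part of tag number in these lengths was not tested. Without *WNT6* and *WNT10A*, whose starts shared the island of DMSO replicate 2, it was shorter for 11 of 12. With equal tag numbers in the standard lists, the island was shorter in both replicates for 7 of 14 members, against 41.7% of 2173 genes, and longer in both for 1, against 12.9%.

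The score of an island, which adds up negative log probabilities of the tags in each window, can be compared within a replicate of the standard lists, where tag numbers were equal. Over the 14 members with an island at the start in all 4 standard lists, the score was higher with GSK126 in both replicates at 5 (*WNT1*, *WNT5B*, *WNT6*, *FZD8* and *SFRP5*) and lower in both at 4 (*WNT2B*, *WNT9B*, *WNT10A* and *SFRP4*), against 46.8% and 28.9% of 2173 genes. In DMSO replicate 1 of the standard lists a single island of 28.2 kb held the starts of both *WNT6* and *WNT10A* (score 905), whereas the GSK126 islands were separate, so their ratios in that replicate compare a shared island with its parts. Without these 2 genes the score was higher in both replicates at 4 of 12 members and lower in both at 3. When each island's score was shared out by length, the part over the gene and its upstream stretch was 136 and 165 with DMSO and 88.9 and 73.0 with GSK126 at *WNT10A*, and 527 and 749 with DMSO and 648 and 1163 with GSK126 at *WNT6*. This comparison was chosen after the values had been seen. At *FZD8* the score was 75.9 and 43.7 with DMSO and 176 and 234 with GSK126. At *WNT1* it was 971 and 1163 with DMSO and 1281 and 2321 with GSK126. At *SFRP5* it was 293 and 306 with DMSO and 373 and 595 with GSK126, and the island was shorter there, 10.4 and 6.0 kb against 6.8 and 5.0 kb. For the score summed over the whole gene and upstream stretch, the median log2 ratio of GSK126 to DMSO was -0.20 over 23 members and -0.20 over all genes, with 50 added to each score.

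**Figure D3:**
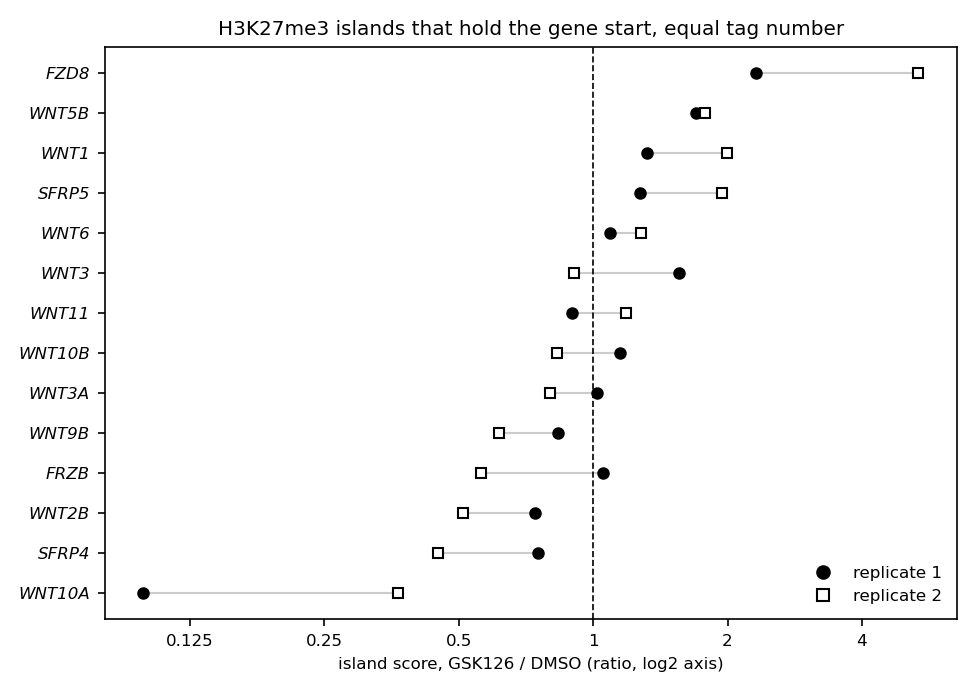
Ratio of GSK126 to DMSO of the score of the H3K27me3 island that holds the gene start (x axis, ratio on a log2 scale), for the 14 members (rows) with such an island in all 4 standard lists. Filled circles are replicate 1, open squares are replicate 2, and the dashed line marks a ratio of 1. *FZD8*, *WNT5B*, *WNT1*, *SFRP5* and *WNT6* lie above 1 in both replicates, and *WNT9B*, *WNT2B*, *SFRP4* and *WNT10A* below 1 in both, and the replicate 1 values of *WNT6* and *WNT10A* share 1 DMSO island.

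H3K4me3 passed the same rule at few of these genes. With spike-in normalization, 1 of the 39 fell by at least 10 points in both replicates and 0 rose, against 1.05% and 0.0497% of all genes. With standard normalization 0 fell and 0 rose, against 1.03% and 0.0447%. A gene covered over less than 10% with DMSO could not fall by this rule. Of the 10 members covered over at least 20% in both DMSO libraries, 1 fell with spike-in and 0 with standard normalization. The shares over the 3147 genes covered to that extent were 6.32% and 6.45%. The member that fell was *FZD9*, with 79.4% and 55.3% in the DMSO libraries and 55.3% and 41.4% in the spike-in GSK126 libraries. In the standard lists the GSK126 values of *FZD9* were 55.3% and 64.5%, so replicate 2 moved the other way. *DKK1*, an inhibitor of the LRP co-receptor, was covered over 100% and 65.9% with DMSO and 90.3% and 65.9% with GSK126 in both normalizations. *FZD7* had 99.7% and 69.8% with DMSO and 94.1% and 66.8% with GSK126 in the spike-in lists. In limma with the block, 0 of 29 members and 0 genes passed in either normalization, and 0 members passed an unadjusted p-value of 0.05, against 5.97% of 14500 genes with spike-in and 5.69% of 14560 genes with standard normalization. Replicate 1 had wider H3K4me3 islands than replicate 2 with both treatments.

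**Figure D4:**
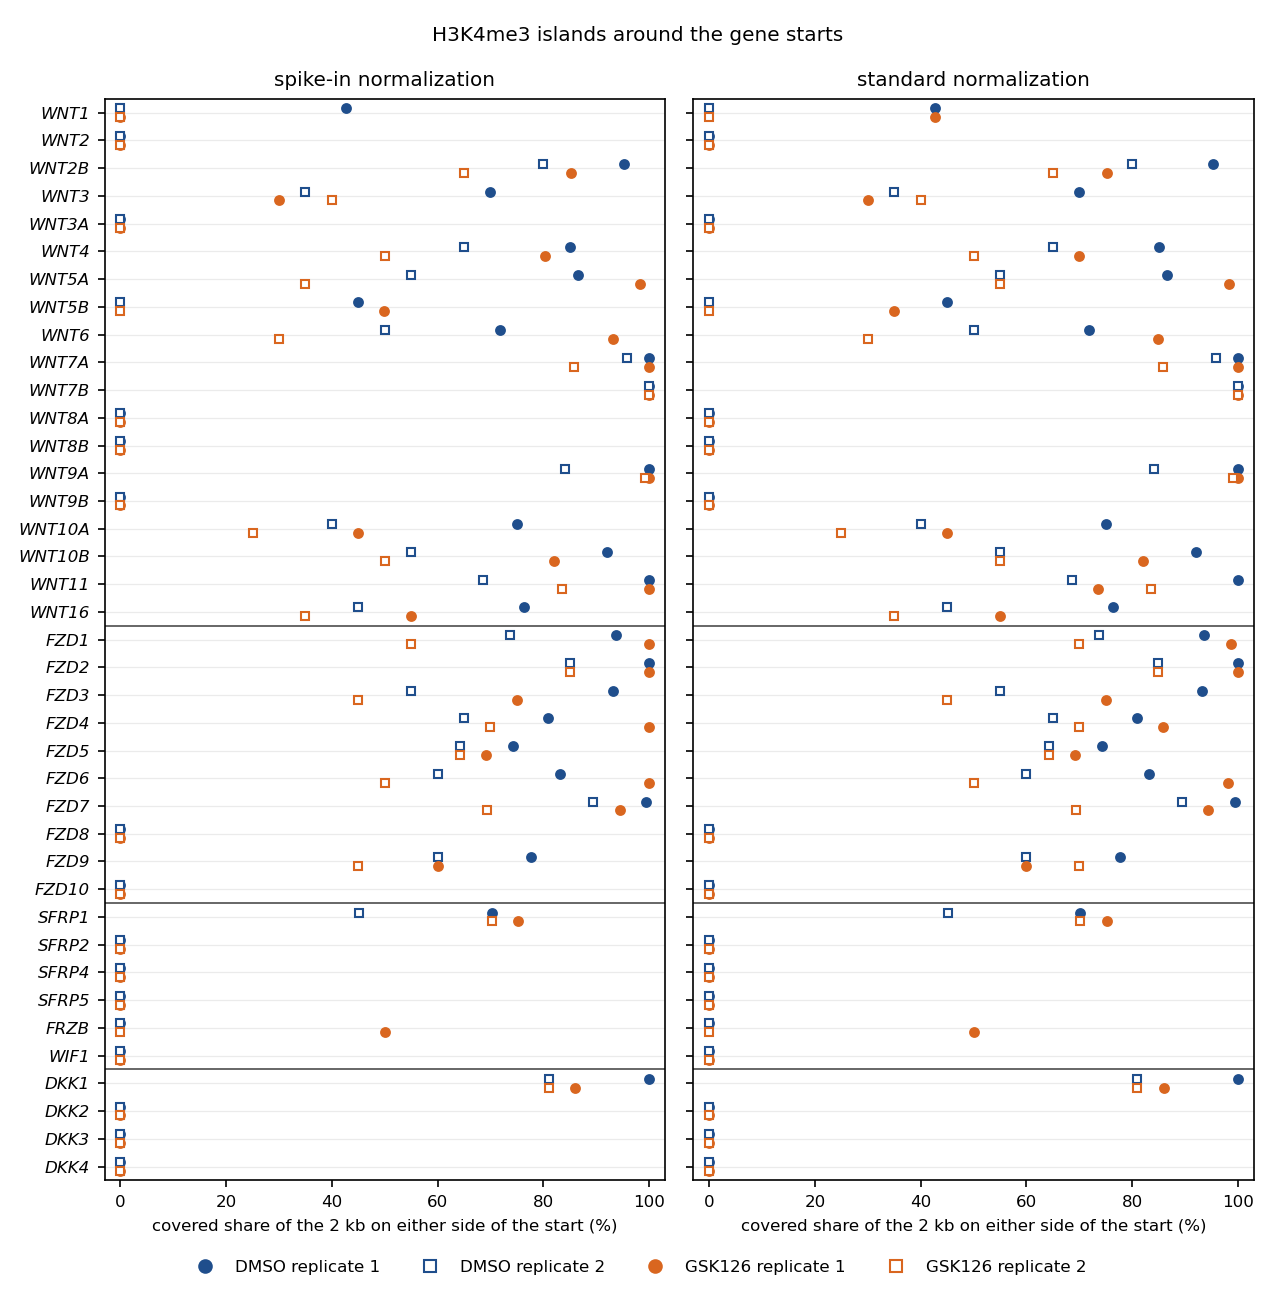
Share of the 2 kb on either side of the gene start covered by H3K4me3 islands (x axis, %), for the 39 genes (rows, grouped by role), with spike-in normalization on the left and standard normalization on the right. Points are single libraries, blue for DMSO and orange for GSK126, filled for replicate 1 and open for replicate 2, and the DMSO values are the same in both panels. Replicate 2 lies below replicate 1 at most genes with either treatment.

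No start gained or lost H3K4me3 in both replicates. Of the 20 starts under H3K4me3 in both DMSO libraries, those of *WNT5A*, *WNT16* and *FZD7* lay outside an island in GSK126 replicate 2. Each of these genes still had an H3K4me3 island within 1 kb of that base in the same library, at *FZD7* on either side of it. *FRZB*, whose start was under H3K27me3 alone, had an H3K4me3 island in GSK126 replicate 1 and not in replicate 2. The 5 ligand starts under both marks with DMSO stayed under both with GSK126 in both normalizations, against 42% of 598 such starts over all genes with spike-in and 69.7% of 528 with standard normalization. They were joined by *WNT10A*, which had H3K4me3 at the start in DMSO replicate 1 and in both GSK126 libraries.

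Other genes of the pathway, 42 co-receptors, R-spondin arm genes, and secretion, cytoplasmic, nuclear and antagonist genes, were counted by the same rule. H3K27me3 fell at 11 of 42 with spike-in normalization, against 15.7% of all genes, and at 2 with standard normalization, against 5.01%. It rose at 0 in both, against 0.0149% and 0.214%. Of the 15 pathway genes covered over at least 20% in both spike-in DMSO lists, 11 fell, against 75% of all genes covered to that extent. Ranked by the smaller of the 2 replicate decreases, the first were *NKD1*, a feedback inhibitor, with 52.4% and 60.4% and then 8.52% and 18.2%, and *TCF7L1*, a nuclear factor, with 40.3% and 54.8% and then 7.71% and 3.69%. They were followed by *KREMEN2*, a Dickkopf receptor, with 41.9% and 28.9% and then 0% and 0%, and *LGR6*, an R-spondin receptor, with 75.7% and 78.4% and then 36.9% and 50.2%. H3K4me3 coverage changed by 10 points in both replicates at 0 of the 42 in either normalization. Over all genes it fell at 1.05% (spike-in) and 1.03% (standard). Only 4 of the 42 were covered by H3K4me3 over at least 20% in both DMSO libraries. Of these, 0 fell, against 6.32% (spike-in) and 6.45% (standard) of all genes covered to that extent.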

How the data were processed

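ChIP-seq tags from PC9 cells had been aligned by the authors with BWA to hg19 (GRCh37), SAMtools 0.1.18 being named in their processing notes, and islands had been called for each library with SICER, with an E-value of 1, 200 bp windows, and a gap of 600 bp (H3K27me3) or 200 bp (H3K4me3). The score deposited with each island adds up negative log Poisson probabilities and depends on the tag number. Replicates were not pooled.

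Groups were taken from the sample labels, which give no replicate numbers. Libraries were paired within a replicate as the authors did when they removed tags. Deviations of paired libraries had a correlation across genes of 0.032 and 0.127 for H3K27me3 (spike-in, standard) and 0.764 and 0.752 for H3K4me3. The replicates were biological according to the study, and p-values measure the spread between these libraries.

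Covered shares were computed with Python 3.11.15, NumPy 2.4.6 and pandas 2.3.3 over genes of GENCODE release 44 mapped to GRCh37, with 2000 bp upstream. A gene was called where the share moved by at least 10 percentage points the same way in both replicates. limma 3.58.1 (R 4.3.3) with a trended prior and the replicate as a block was fitted across genes with at least 1 island, with Benjamini-Hochberg adjustment at 0.05. Coverage and limma were tested on simulated data. Plots were drawn with Matplotlib 3.10.9.

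Values in every library are given for the 2 members of each role with the highest H3K27me3 share, the 6 with the largest and the 6 with the smallest decrease among those covered over at least 20% in both DMSO lists, members called for H3K4me3, members whose start lost or gained an island in both replicates, and neighbours under 50 kb apart, and further members were added after their values were seen. The members, lists and rules were chosen with earlier results of these data known. Alternatives covered island score, island length, the stretch counted, the size of change, the DMSO list, the block, and each replicate left out. 1 of the marker genes examined is not reported here.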

Additional observations from a re-analysis of the deposited data

How the results depend on the processing

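The lists hold no tag counts, so depth limits each island in a way that could not be given an interval, and the GSK126 spike-in lists were called from fewer tags than the DMSO lists by construction. Each group has 2 libraries, and the cause of the changes below was not tested. Of the alternative values, 52 kept their direction and size or call, 40 moved and 0 reversed.

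For H3K27me3 with spike-in lists, 10 members fell by the main rule and 16 by a change of 5 points. For the alternative counts of members that fell, here and below, the share over all genes was not computed. The median change of -5.79 points became 0 with islands of 2 times the lowest score, -2.55 within 2000 bp on either side of the start, -2.61 against the standard DMSO list, and -5.40 to -3.03 when a replicate was left out. Leaving out the replicate block, which pairs libraries within a replicate, took the members past limma from 0 to 14 of 26, against 44.7% of all genes. The stretch around the start gave 2 of 22 members, against 379 of 4672 genes. The fit without a filter on genes could not be fitted for H3K27me3.

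For H3K27me3 with standard lists, 2 members fell by the main rule, 1 over the gene body alone, 4 at 5 points, 0 at 20 points, and 5 to 8 when a replicate was left out. The median change of -0.43 became 0 with islands of 2 times the lowest score, the gene body alone, the stretch around the start and a minimum island length of 2000 bp, and 0 to 0 when a replicate was left out. The median log2 score ratio of -0.20 became -0.36 and -0.13 with 10 and 200 added to each score, -0.12 around the start, and -0.030 to -0.00017 when a replicate was left out.

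For H3K4me3, the 1 member that fell with spike-in lists became 2 around the start, 0 at 20 points, and 2 to 3 when a replicate was left out. With standard lists, 0 became 3 around the start and 0 to 3 when a replicate was left out. The median change of -0.54 became 0 over the gene body alone, 0 around the start and 0 when either replicate was left out, in both normalizations. It became -0.66 (spike-in) and -0.88 (standard) with islands of 2 times the lowest score. The median log2 H3K4me3 score ratio of -0.12 became -0.15 and -0.11 with 10 and 200 added to each score, and -0.092 around the start. It was -0.15 without replicate 1 and -0.050 without replicate 2. Starts that kept H3K27me3 went from 14 of 16 to 9 of 13 with islands of 2 times the lowest score, against 45.1% of 2548 over all genes. They went to 11 of 14 with the outermost start of the gene, against 45.9% of 3005. The outermost start was an alternative chosen after seeing the data.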
